A study of Macaca mulatta with 24 samples.

Results

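Axon guidance ligands and receptors were compared among 4 areas of the neocortex of the adolescent rhesus monkey (Macaca mulatta). The members were the probe sets assigned to a single gene whose symbol places it among the EPHA and EPHB receptors, the EFNA and EFNB ephrins, the semaphorins (SEMA), plexins (PLXN), numbered SLIT ligands, ROBO receptors, netrins (NTN) and UNC5 receptors, or is NRP1, NRP2 or DCC. They made up 107 of 52766 probe sets and 65 of 14132 named genes. Of these, 74 probe sets for 52 genes were bright enough to be tested, with a mean log2 intensity at or above 5.62, the median of all probe sets. The search for symbols beginning with UNC5 also took in UNC50 and UNC5CL, which are not netrin receptors and are described apart.

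Guidance molecules steer growing axons by attraction and repulsion, and many stay expressed in the mature cortex, where they act at synapses and in glia and blood vessels. Ephrins are membrane-bound ligands of the Eph receptor tyrosine kinases. Secreted class 3 semaphorins bind neuropilins, which signal through plexins, whereas most other semaphorins bind plexins directly. SLIT proteins repel axons through ROBO receptors, and netrin-1 attracts or repels axons through DCC and the UNC5 receptors. The netrin-G proteins NTNG1 and NTNG2 are membrane-anchored relatives that bind partners of the NGL family at synapses.

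The areas were prefrontal area 46 (A46, from the banks of the principal sulcus), ventral and dorsal premotor cortex (PMv and PMd) and the forelimb part of primary motor cortex (M1), all located by sulcal landmarks. Every area came from the left and right hemisphere of the same 3 animals, giving 24 arrays and 6 per area. Animals 1 and 2 were males aged 2.7 and 2.6 years and animal 3 was a female aged 2.7 years, so leaving out animal 3 leaves males only. All were kept in group cages, received no experimental treatment, and were perfused with saline under pentobarbital before dissection. Total RNA of each piece, which mixes all its cell types, was hybridised to 1 Affymetrix Rhesus array. In such bulk tissue, fewer cells of a type and less RNA per cell cannot be told apart.

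Array medians ranged from 47.9 to 51.7 in linear intensity. The left PMv arrays of animals 1 and 2 stood apart from the other 22, with median correlations to the remaining arrays of 0.984 and 0.988 against 0.991 to 0.993. Differences called in comparisons that include PMv are therefore also given with the right PMv array only for these 2 animals. Among the marker lists, 7 of 8 tested oligodendrocyte and myelin genes were higher in M1 than in A46, and their summed intensity ranged from 9897 to 13468 on the A46 arrays and from 18877 to 25868 on the M1 arrays. Markers of upper layer projection neurons were lower in M1 for 5 of 8 genes, and their sum ranged from 6537 to 8039 in A46 and from 4754 to 5722 in M1. Of layer 5 and 6 projection neuron markers, 5 of 8 were higher in M1 and 2 were lower. Of GABAergic interneuron markers, 3 of 6 were higher and 1 was lower, and their sum ranged from 3549 to 4030 in A46 and from 4192 to 4629 in M1, without overlap. Oligodendrocyte precursor markers were higher in M1 for 2 of 4 genes, astrocyte markers for 2 of 9 and microglial markers for 2 of 11, with 1 microglial marker lower. Of 7 meningeal and fibroblast markers, 1 was called higher in M1, but 5 had a negative difference and the median was -0.18. Over all tested genes, 14.7% were called in this comparison. The ratio of 3' to 5' signal of the actin control, a sign of RNA integrity, was 1.08 ± 0.11 in A46 and 0.94 ± 0.05 in M1 on the log2 scale, and that of GAPDH was 0.84 ± 0.05 and 0.96 ± 0.04 (SD, n = 3 animals). The part of cell composition and RNA integrity in the results below was not tested.

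The comparison between M1 and A46 asked which guidance genes distinguish the forelimb motor area from the prefrontal area. EPHA3, NTNG1, SLIT1, SEMA3C, EFNB2, EFNB3, SLIT2, PLXND1, PLXNA2, PLXNA1 and SEMA4A were lower in M1, and UNC5B, PLXNB3 and ROBO1 were higher. Among the probe sets, 21 of 74 passed limma's test at an adjusted p under 0.05, against a background of 12.9% of all tested probe sets. The members split into 5 higher in M1, where the background was 7.49%, and 16 lower, where it was 5.36%. Represented by its brightest probe set, 14 of 52 genes were called, 3 higher and 11 lower, against 1473 of all 10043 tested genes (14.7%), 881 higher and 592 lower. In all 14 the difference had the same sign in each of the 3 animals. The test that chose them used the same animals and favours such genes, so this adds no separate support. The median difference was -0.05 over the 52 genes and -0.00 over all 10043 genes, on the log2 scale. Only 1 member, EPHA3, was called with a difference of at least 2-fold. The count changed with the fit: 8, 2 and 28 member probe sets were called without animals 1, 2 and 3 respectively. When the animal was not a term of the model, 5 were called. Leaving out an animal also leaves fewer residual degrees of freedom, so a lost call, here and below, need not mean a smaller difference. Without animal 2, for example, the differences of NTNG1 (-0.67), EFNB2 (-0.45) and PLXND1 (-0.38) were no smaller than with all animals. Those of PLXNB3 (0.49) and SLIT1 (-0.45) were smaller. EPHA3 and UNC5B passed in each of these 4 fits. The share of all probe sets called in them is not given here, so their counts have no background beside them.

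**Figure D1:**
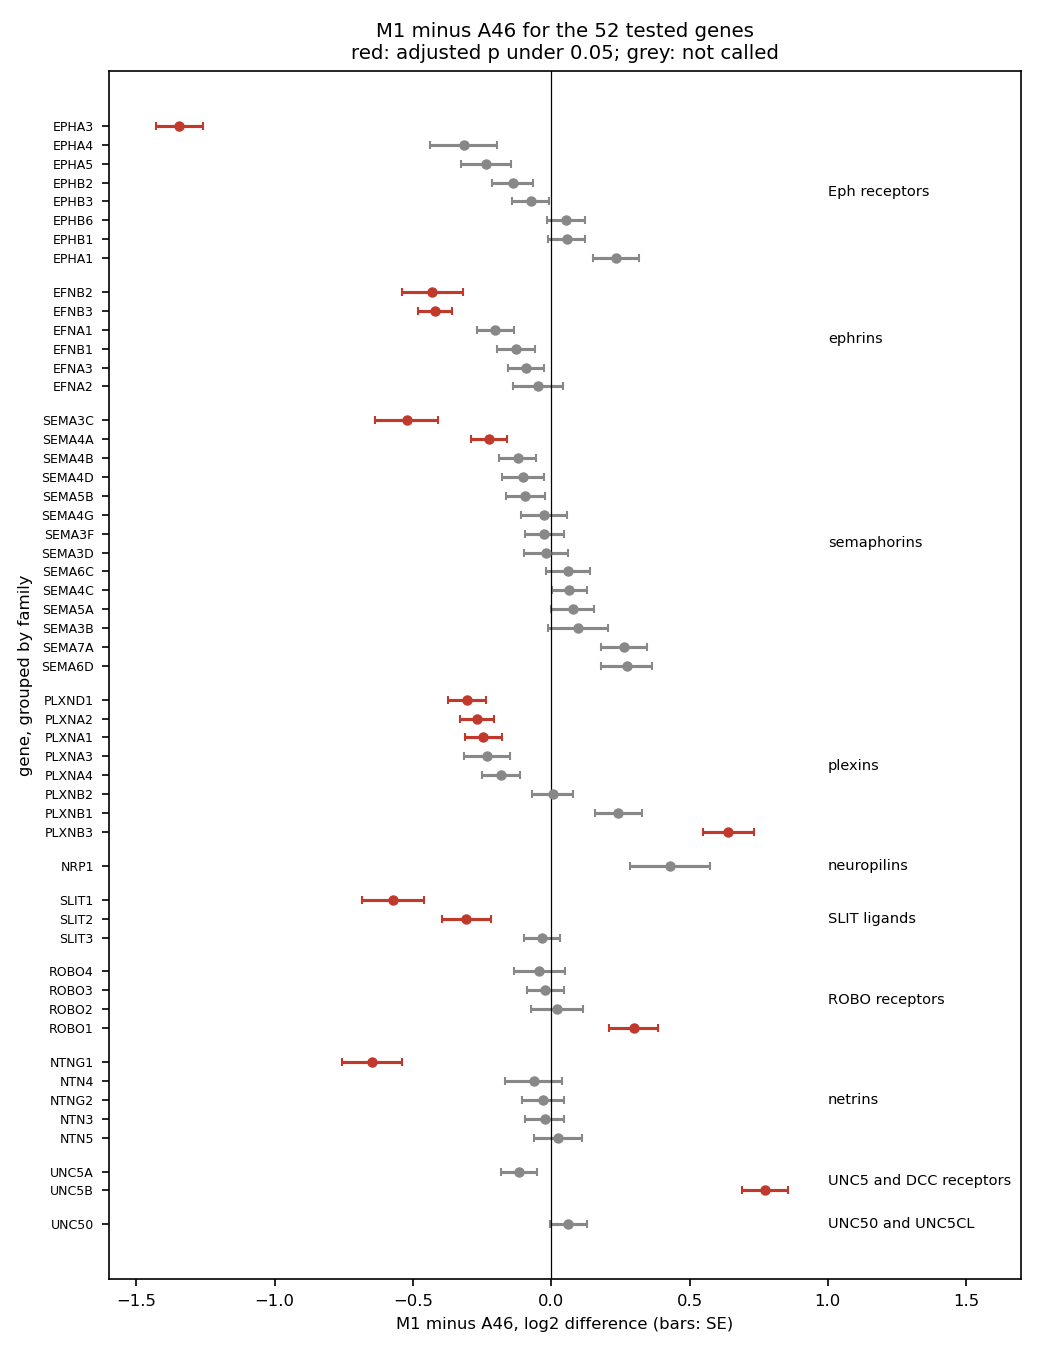
Difference between M1 and A46 (log2, horizontal axis) for the 52 tested genes, grouped by family on the vertical axis; points are the brightest probe set of each gene, bars the standard error (SE), and red marks an adjusted p under 0.05. EPHA3 lies farthest to the left at -1.34 and UNC5B farthest to the right at 0.77, and 11 of the 14 red points are below 0.

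When all 4 areas were tested together with limma's F test, 10 of 74 member probe sets were called, against 6.53% of all tested probe sets. They represented EPHA3, EFNB3, UNC5B, SEMA3C (2 probe sets), PLXNB3, NTNG1, SLIT1, PLXNA2 and a second probe set of EFNA1. For 8 of the 11 genes that were lower in M1 than in A46, A46 was the highest and M1 the lowest of the 4 areas. A46 was the lowest of the 4 areas for all 3 genes that were higher in M1. These orders are partly fixed in advance, because the genes were chosen by M1 minus A46 on the same arrays. The matching share over all called genes is not given here. The 6 M1 arrays did not overlap the 6 A46 arrays for 11 of 74 member probe sets, against 8.68% of all tested probe sets. Without animals 1, 2 and 3 the F test called 4, 1 and 27 member probe sets, and with right PMv arrays only for animals 1 and 2 it called 15. For these counts, too, the share of all probe sets is not given here.

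Among the Eph receptors, 1 of 8 tested genes differed between M1 and A46, a share near the 14.7% of all tested genes. EPHA3, a receptor for A-type ephrins such as ephrin-A5, had log2 intensities of 7.29 to 7.83 (median 7.68) on the 6 A46 arrays, 6.82 to 7.60 (median 7.25) on PMv, 6.89 to 7.26 (median 7.16) on PMd and 5.64 to 6.58 (median 6.34) on M1. Every M1 array was below every array of the other 3 areas, and the PMd arrays were also all below the A46 arrays, whereas PMv overlapped A46. The M1 mean was 2.54-fold lower than the A46 mean, a log2 difference of -1.34 (SE 0.08, limma adjusted p = 1.7e-06), with -1.38, -1.36 and -1.29 in animals 1, 2 and 3. EPHA3 was also lower in PMd (-0.51, adjusted p = 0.0108) and PMv (-0.42, adjusted p = 0.0339) than in A46, and lower in M1 than in the mean of both premotor areas (-0.88, adjusted p = 0.000235). With right PMv arrays only for animals 1 and 2, the differences were -0.41 for PMv minus A46 (adjusted p = 0.0167) and -0.89 for M1 minus the premotor mean (adjusted p = 4.6e-05). The premotor differences from A46 lost their call without animal 1 (adjusted p = 0.18 for PMd and 0.256 for PMv) or animal 2 (0.15 and 0.78). The difference of M1 from the premotor mean passed without any 1 animal (0.000406 to 0.0203) but not without the animal term (0.0608). A second EPHA3 probe set, with a mean of 5.01, was too dim to be tested.

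EPHA4, which binds ephrins of both classes, showed a pattern that differed between animals. Its arrays ranged from 9.01 to 9.43 (median 9.20) in A46 and from 8.64 to 9.29 (median 8.78) in M1, so the areas overlapped. The M1 minus A46 difference was -0.60 in animal 1, -0.45 in animal 2 and 0.10 in animal 3, and did not pass the test (mean -0.32, SE 0.12, adjusted p = 0.115). EPHA5 had a difference of -0.24 (adjusted p = 0.117) and EPHA1 one of 0.23 (adjusted p = 0.0873). One of the 2 other tested probe sets of EPHA1 passed at 0.31 (adjusted p = 0.0488), a call that was lost without animal 2 (0.361) or animal 3 (0.131). EPHB6, a receptor without kinase activity and the brightest Eph probe set, had area means from 9.06 to 9.20 and a difference of 0.05 (adjusted p = 0.691). EPHB1, EPHB2 and EPHB3 did not pass either, with differences from -0.14 to 0.06 for their brightest probe sets. Another tested EPHB1 probe set had medians of 7.23 in A46 and 7.43 in M1, and was not called.

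Among 6 tested ephrins, the 2 genes called by their brightest probe set encode transmembrane B-type ligands (14.7% of all genes were called). EFNB3, known as the midline barrier that keeps corticospinal axons on their side of the cord, was measured at 8.67 to 8.86 (median 8.74) in A46, 8.67 to 8.87 (median 8.79) in PMv, 8.59 to 8.70 (median 8.64) in PMd and 8.26 to 8.41 (median 8.32) in M1. All 6 M1 arrays lay below all 18 arrays of the other areas, and A46 and PMv covered nearly the same range. EFNB3 was 1.34-fold lower in M1 than in A46 (log2 difference -0.42, SE 0.06, adjusted p = 0.000691) and 1.30-fold lower than in the premotor mean (-0.38, SE 0.05, adjusted p = 0.00448). The premotor contrast was close to equal in size in the 3 animals, at -0.38, -0.37 and -0.39, and was -0.36 (adjusted p = 0.00237) with right PMv arrays only for animals 1 and 2. Both calls were lost without animal 2 (adjusted p = 0.107 and 0.195). The other tested EFNB3 probe set gave a difference of -0.09 from A46 (adjusted p = 0.646), so the fall was seen with 1 of 2 probe sets.

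EFNB2, a ligand of EPHB receptors and EPHA4 that also marks arterial vessels, spanned 8.83 to 9.02 (median 8.94) on A46 arrays and 8.17 to 8.72 (median 8.55) on M1 arrays. These groups did not overlap, while the PMd arrays (8.49 to 8.99) and PMv arrays (7.91 to 8.96) bridged them. The M1 minus A46 difference was -0.43 (SE 0.11, adjusted p = 0.0222), and a second probe set gave -0.45 (adjusted p = 0.04). Neither passed without animal 1 (0.0923 and 0.248), without animal 2 (0.294 and 0.555) or without the animal term (0.162 and 0.333). Of the endothelial and pericyte markers, 1 of 6 was called, and their sum ranged from 1182 to 1248 in A46 and from 1230 to 1296 in M1. EFNA1, the brightest ephrin, had 2 probe sets with opposite signs. The brighter one gave -0.20 (adjusted p = 0.0644), and the dimmer one rose by 0.48 (adjusted p = 0.00492), from 6.40 to 6.66 on A46 arrays to 6.68 to 7.39 on M1 arrays. The call of the dimmer one was lost without animal 1 (0.0504) or animal 2 (0.223). No direction is therefore given for EFNA1. EFNA2, EFNA3 and EFNB1 had differences from -0.13 to -0.05, none of which passed.

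**Figure D2:**
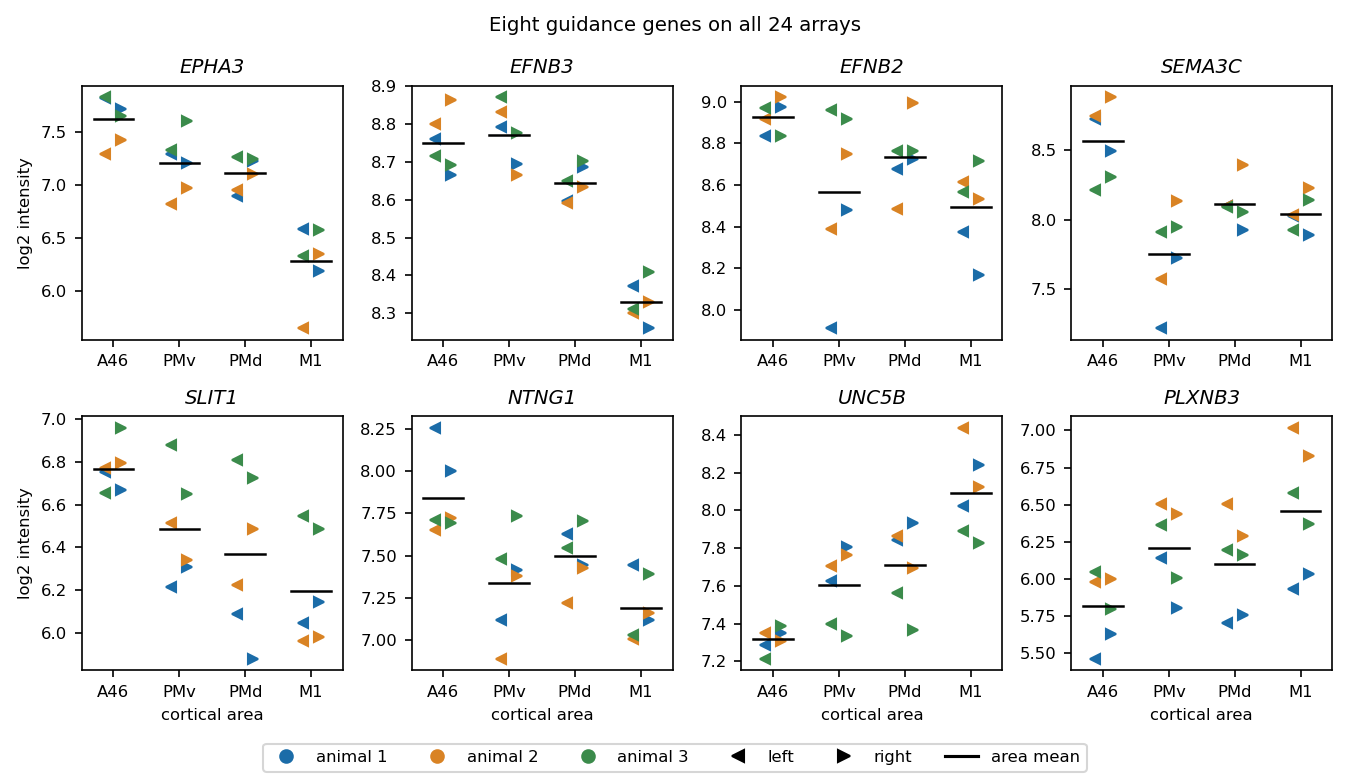
Log2 intensity (vertical axis, a separate scale in each panel) of EPHA3, EFNB3, EFNB2, SEMA3C, SLIT1, NTNG1, UNC5B and PLXNB3 on all 24 arrays by area; colour marks the animal, left and right triangles the hemisphere, and the line the area mean. The M1 arrays of EPHA3 and EFNB3 lie below all arrays of the other areas, SEMA3C is lowest in PMv, and UNC5B is highest in M1.

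Among the netrins, NTNG1 was the only 1 of 5 tested genes called (14.7% of all genes). This synaptic netrin-G had log2 intensities of 7.65 to 8.26 (median 7.72) in A46, 6.89 to 7.73 (median 7.40) in PMv, 7.22 to 7.71 (median 7.50) in PMd and 7.01 to 7.44 (median 7.14) in M1. M1 and A46 did not overlap, and the 2 highest A46 arrays both came from animal 1. NTNG1 was 1.57-fold lower in M1 than in A46 (-0.65, SE 0.11, adjusted p = 0.0017), and this call was lost without animal 2 (0.0854). In PMv it was also lower than in A46 (-0.50, SE 0.11, adjusted p = 0.0442), with -0.86, -0.55 and -0.09 in animals 1, 2 and 3. That call was kept with right PMv arrays only for animals 1 and 2 (-0.37, adjusted p = 0.0493) and lost without animal 1 (0.384) or animal 2 (0.963). The paralog NTNG2 had area means of 7.76 to 7.86 and a difference of -0.03 (SE 0.08, adjusted p = 0.862). LRRC4C, the NGL-1 partner of NTNG1, had a difference of -0.01 (SE 0.06, adjusted p = 0.967). NTN3, NTN4 and NTN5 had differences between -0.06 and 0.02, and NTN1, the classical secreted guidance cue, was too dim to be tested.

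Of the netrin receptors, UNC5A and UNC5B were bright enough to be tested. UNC5B, a repulsive netrin-1 receptor also active in blood vessels, had log2 intensities of 7.21 to 7.39 (median 7.33) in A46, 7.34 to 7.80 (median 7.67) in PMv, 7.37 to 7.93 (median 7.77) in PMd and 7.83 to 8.44 (median 8.07) in M1. Every M1 array exceeded every A46 and PMv array, and M1 overlapped only PMd. UNC5B was 1.71-fold higher in M1 than in A46 (0.77, SE 0.08, adjusted p = 8.1e-05), and the difference was 0.81, 0.95 and 0.56 in animals 1, 2 and 3. It was also higher in PMd than in A46 (0.39, SE 0.08, adjusted p = 0.0332) and higher in M1 than in the premotor mean (0.43, SE 0.07, adjusted p = 0.0107), or 0.41 (adjusted p = 0.00643) with right PMv arrays only for animals 1 and 2. The PMd call was lost without animal 1 (0.38) or animal 2 (0.712), and the call against the premotor mean without animal 2 (0.418). UNC5A, the brightest of the family, had area means from 9.84 to 9.95 and a difference of -0.12 (SE 0.06, adjusted p = 0.292). UNC5C and DCC were too dim to be tested.

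Of the 3 genes for SLIT ligands, which repel axons, 2 were lower in M1 than in A46, and of the 4 genes for their ROBO receptors 1 was higher, against 14.7% of all genes called in either direction. SLIT1 had log2 intensities of 6.65 to 6.96 (median 6.76) in A46, 6.21 to 6.88 (median 6.43) in PMv, 5.88 to 6.81 (median 6.35) in PMd and 5.96 to 6.55 (median 6.10) in M1. A46 and M1 did not overlap, and in PMv, PMd and M1 both arrays of animal 3 were the highest 2. The M1 minus A46 difference of SLIT1 was -0.57 (SE 0.11, adjusted p = 0.00492), lost without animal 2 (0.23) or the animal term (0.144). SLIT2 ranged from 8.14 to 8.71 (median 8.40) in A46 and reached at most 8.17 (median 8.11) in M1, and these groups overlapped. Its difference was -0.31 (SE 0.09, adjusted p = 0.0401), or -0.57, -0.29 and -0.06 in animals 1, 2 and 3, and was not called without animal 1 (0.344) or animal 2 (0.37). SLIT3 had a difference of -0.03 (adjusted p = 0.821).

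ROBO1, a receptor for SLIT proteins, had its lowest area mean in A46. Its arrays lay at 6.92 to 7.34 (median 7.25) in A46, 7.26 to 7.76 (median 7.55) in PMv, 7.28 to 7.63 (median 7.52) in PMd and 7.29 to 7.62 (median 7.53) in M1. The last 3 areas covered nearly the same range, which overlapped the upper end of A46. ROBO1 was 1.23-fold higher in M1 than in A46 (0.30, SE 0.09, adjusted p = 0.0423), whereas the differences of PMd (0.29, adjusted p = 0.129) and PMv (0.35, adjusted p = 0.0763) did not pass. The M1 call was lost without animal 1 (0.119), animal 2 (0.555) or the animal term (0.143). ROBO2, ROBO3 and ROBO4 had differences from -0.04 to 0.02, and the area means of ROBO2 spanned only 7.21 to 7.23.

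Of 14 tested semaphorins, 2 were lower in M1 than in A46 and the other 12 did not pass, which is close to the 14.7% of all tested genes. SEMA3C, a secreted ligand of neuropilin and plexin receptors, was lowest in PMv rather than in M1. Its log2 intensities were 8.21 to 8.88 (median 8.61) in A46, 7.22 to 8.14 (median 7.82) in PMv, 7.92 to 8.39 (median 8.09) in PMd and 7.89 to 8.22 (median 8.03) in M1. All PMv arrays were below all A46 arrays, and the lowest was the left PMv array of animal 1. SEMA3C was 1.75-fold lower in PMv than in A46 (-0.81, SE 0.11, adjusted p = 0.00602) and 1.44-fold lower in M1 (-0.52, SE 0.11, adjusted p = 0.00885). With right PMv arrays only for animals 1 and 2 the PMv difference was -0.63 (adjusted p = 0.0022). A second probe set was also called, at -0.72 in PMv (adjusted p = 0.0155, or -0.78 and 0.0033 with these right PMv arrays only), -0.56 in PMd (adjusted p = 0.0321) and -0.52 in M1 (adjusted p = 0.0114). The differences of the brighter probe set in PMv were -1.14, -0.96 and -0.33 in animals 1, 2 and 3, or -0.89, -0.68 and -0.33 with right arrays only for animals 1 and 2. Its calls in PMv and M1 were lost without animal 1 (0.0869 and 0.0576), without animal 2 (0.472 and 0.294) and without the animal term (0.129 and 0.074).

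SEMA4A, a membrane-bound class 4 semaphorin, had log2 intensities of 8.55 to 8.74 (median 8.68) in A46 and 8.39 to 8.59 (median 8.40) in M1. The ranges overlapped slightly, and the difference of -0.22 (SE 0.06, adjusted p = 0.0371) was lost without animal 1 (0.169) or animal 2 (0.531). SEMA6D, the brightest semaphorin, had a difference of 0.27 (SE 0.09, adjusted p = 0.0705), while its 3 other tested probe sets gave 0.09, -0.08 and -0.17. SEMA7A, a membrane-anchored semaphorin that binds integrins and plexin C1, had M1 arrays (5.92 to 6.23) above all A46 arrays (5.68 to 5.91) and just missed the threshold (0.26, SE 0.08, adjusted p = 0.0521). SEMA4D, the plexin B1 ligand, had a difference of -0.10 (adjusted p = 0.454). SEMA3A, the best known repulsive semaphorin, was too dim to be tested on all 3 of its probe sets.

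Plexins are the signalling receptors of semaphorins. Of 8 tested genes 3 were lower in M1 than in A46 (PLXNA1, PLXNA2 and PLXND1) and 1 was higher (PLXNB3), against 14.7% of all genes called. PLXNB3, a receptor for semaphorin 5A, was 1.56-fold higher (0.64, SE 0.09, adjusted p = 0.00067). Its arrays ranged from 5.46 to 6.05 (median 5.89) in A46, 5.81 to 6.51 (median 6.25) in PMv, 5.70 to 6.50 (median 6.18) in PMd and 5.93 to 7.02 (median 6.47) in M1. The groups overlapped, and the animals differed in level, with both arrays of animal 1 the lowest 2 in A46, PMd and M1. Within animals the M1 minus A46 difference was 0.44, 0.93 and 0.55, and the call was lost without animal 2 (0.077) or the animal term (0.179). The other tested B plexins were not called, at 0.24 for PLXNB1 (adjusted p = 0.0773) and 0.01 for PLXNB2 (adjusted p = 0.979). A second tested probe set of PLXNB2 had the opposite sign, with medians of 8.27 in A46 and 8.06 in M1, and was not called either.

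PLXNA2, a co-receptor for class 3 semaphorins and a direct receptor for class 6, had log2 intensities of 8.68 to 8.87 (median 8.79) in A46, 8.39 to 8.72 (median 8.67) in PMv, 8.14 to 8.65 (median 8.62) in PMd and 8.37 to 8.62 (median 8.53) in M1. Both the PMd and the M1 arrays lay below all A46 arrays. PLXNA2 was lower by the same amount in M1 (-0.27, SE 0.06, adjusted p = 0.0118) and PMd (-0.27, SE 0.06, adjusted p = 0.0425), but its other tested probe set gave -0.10 in M1 and 0.03 in PMd, without a call. PLXND1, a receptor of vascular and neuronal semaphorin signals, was 7.68 to 7.98 (median 7.76) in A46 and 7.32 to 7.59 (median 7.50) in M1, with no overlap (-0.30, SE 0.07, adjusted p = 0.0107). All 3 tested probe sets of PLXNA1 were lower in M1, at -0.24, -0.34 and -0.43 (adjusted p = 0.031, 0.0448 and 0.0285). Without animals 1 and 2 in turn, the adjusted p was 0.127 and 0.238 for PLXNA2, 0.124 and 0.106 for PLXND1, and 0.153 and 0.409 for the brightest PLXNA1 probe set. PLXNA3 and PLXNA4 had differences of -0.23 and -0.18 that did not pass (adjusted p = 0.0938 and 0.104), while a second PLXNA3 probe set did (-0.29, adjusted p = 0.0355), a call lost without any 1 of the animals (0.0524 to 0.413).

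The neuropilins, which bind class 3 semaphorins and vascular growth factors, were represented by 1 tested gene. NRP1 ranged from 5.98 to 6.47 (median 6.18) in A46 and from 6.17 to 7.01 (median 6.71) in M1, and the groups overlapped. Its difference of 0.43 (SE 0.15, adjusted p = 0.0721) was not called, and was 0.08, 0.37 and 0.84 in animals 1, 2 and 3. With right PMv arrays only for animals 1 and 2, the difference of NRP1 was the same 0.43, but it passed (adjusted p = 0.0212). No PMv array enters this difference, and only the spread shared by the areas changed. NRP1 also passed without animal 1 (0.60, adjusted p = 0.0159). UNC50, from a family unrelated to netrin receptors, had area means from 9.33 to 9.41 and a difference of 0.06 (adjusted p = 0.622).

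Premotor cortex was compared with A46 to ask whether it shares these differences, and both comparisons use the same A46 arrays as M1 does. In PMd, 4 of 74 member probe sets were called, against 1.95% of all tested probe sets, with UNC5B higher and EPHA3, PLXNA2 and the dimmer SEMA3C probe set lower. In PMv, 4 of 74 were called, against 1.23%, all lower, for EPHA3, NTNG1 and both SEMA3C probe sets. Between M1 and the premotor mean, 3 of 74 were called, against 2.16%, with EPHA3 and EFNB3 lower and UNC5B higher in M1. None of 74 differed between PMd and PMv, where 0.00758% of all probe sets were called. With right PMv arrays only for animals 1 and 2, the counts were 7 for PMd minus A46, 5 for PMv minus A46 and 4 for M1 minus the premotor mean. The shares above belong to the fit with all arrays, and none is given for this fit.

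The difference between premotor cortex and A46 varied from animal to animal, and the 2 left PMv arrays that stood apart belong to animals 1 and 2. For the 11 genes that were lower in M1 than in A46, the mean of both premotor areas minus A46 was negative for 10, 11 and 8 genes in animals 1, 2 and 3, with medians of -0.46, -0.21 and -0.07. With right PMv arrays only for animals 1 and 2, these counts were again 10, 11 and 8, and the medians were -0.31, -0.25 and -0.07. The smallest fall among the 3 animals was that of animal 3 for 10 of the 11 genes, and for 9 with right PMv arrays only. SLIT1, for example, differed from A46 by -0.73, -0.43 and -0.04 in PMd of animals 1, 2 and 3. NTNG1 differed by -0.86, -0.55 and -0.09 in PMv, or by -0.72, -0.31 and -0.09 with right arrays only for animals 1 and 2. How often animal 3 had the smallest fall over all genes lower in M1 is not given here. Whether this pattern is particular to the guidance genes was not tested. Without animal 3, 16 member probe sets were called in PMd minus A46 (14 lower) and 27 in PMv minus A46 (20 lower), the latter becoming 19 (15 lower) with right PMv arrays only. Without animal 1 or animal 2, 0 were called in either. The share of all probe sets called in these fits is not given here. Whether the change in counts is particular to the members was therefore not tested. Animal 3 was also the only female, so sex and animal cannot be told apart.

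**Figure D3:**
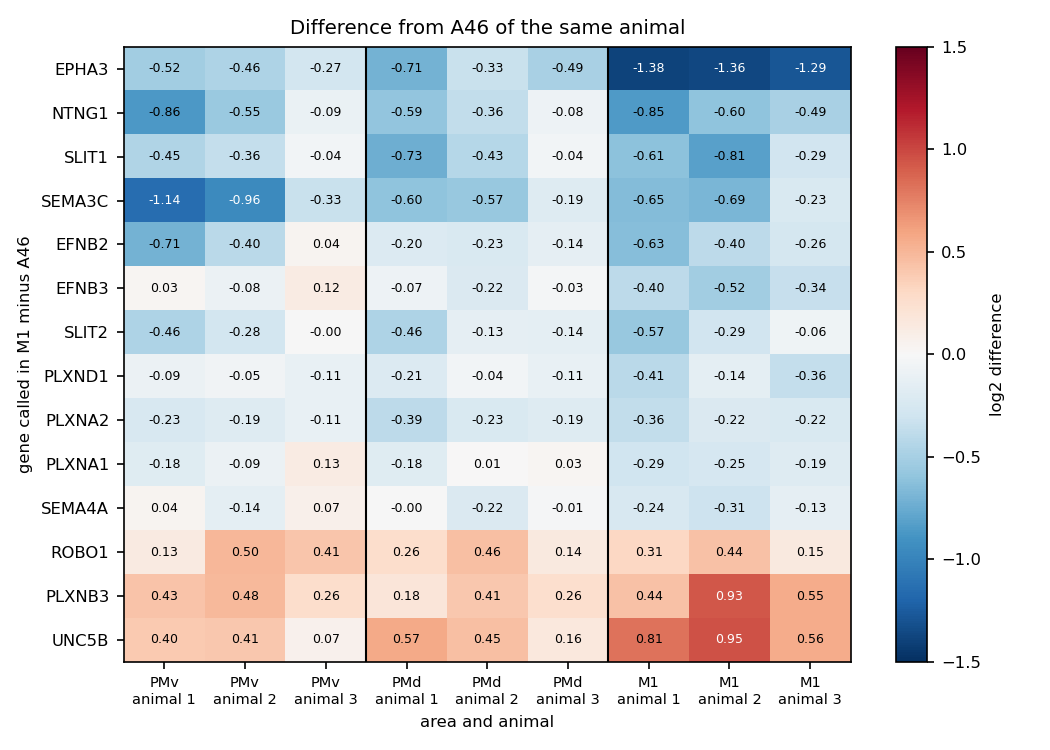
Log2 difference of PMv, PMd and M1 from A46 of the same animal (columns) for the 14 genes called in M1 minus A46 (vertical axis); blue is lower and red higher than A46, on a scale from -1.5 to 1.5. In the M1 columns all 3 animals share a sign for every gene, which the choice of genes by M1 minus A46 favours. In the PMv and PMd columns animal 3 is the palest for most of the lower genes.

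Genes with several probe sets were also compared within the array, although the stretches of transcript that these read were not checked. Of 17 genes with more than 1 tested probe set, 12 had the same sign of M1 minus A46 in all of them and 5 did not (EFNA1, EFNA2, EPHB1, PLXNB2 and SEMA6D). Most had only 2, whose signs can often agree by chance, and the share over all genes is not given here. Every tested probe set was called for EFNB2, SEMA3C and PLXNA1. For EFNB3 and PLXNA2 the brightest probe set was called and the other was not.

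**Figure D4:**
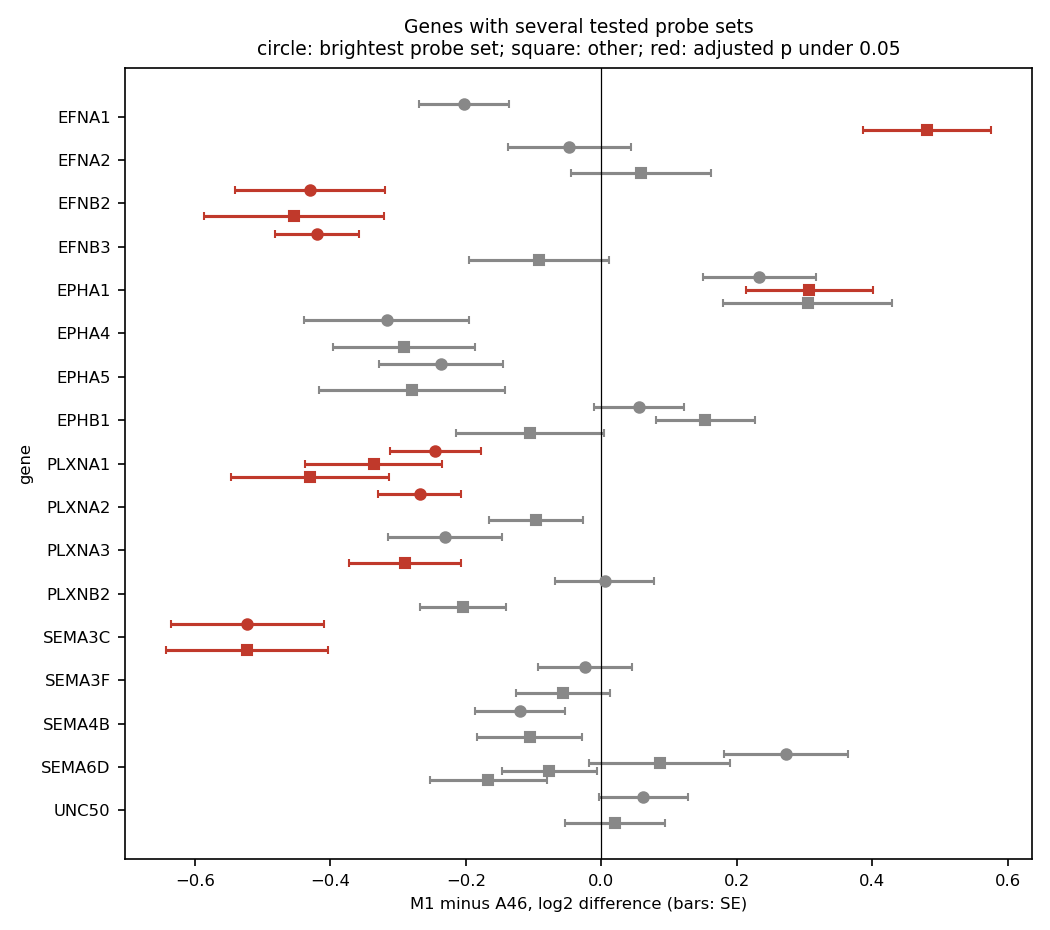
M1 minus A46 (log2, horizontal axis) for each tested probe set of the 17 genes with several (vertical axis); circles are the brightest probe set, squares the others, bars the SE, and red marks an adjusted p under 0.05. The probe sets of EFNB2, SEMA3C and PLXNA1 lie together on the left, and those of EFNA1 lie on opposite sides of 0.

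Left and right hemispheres were compared within each animal and area. None of 74 member probe sets differed by limma, against 0% of all tested probe sets. At an unadjusted p under 0.05 there were 6 of 74 members and 2022 of 26383 probe sets. The 12 pairs of pieces come from 3 animals, so this test counts more units than animals, and a fit to per-animal means also called 0. The median size of the difference was 0.02 for members on the log2 scale and 0.04 for all probe sets. The smallest unadjusted p among the members was that of the dimmer of 2 tested SEMA3F probe sets (-0.15, adjusted p = 0.429), not of the brightest one that represents the gene. A test of whether the hemisphere difference varied among areas called 0 members, with 2 of 74 members and 1113 of 26383 probe sets at an unadjusted p under 0.05.

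Other genes of the pathway, namely co-receptors, further ligands and cytoplasmic effectors, were taken from a list of 78, of which 58 were tested. In M1 minus A46, 12 of 58 were called, 4 higher and 8 lower, against 14.7% of all tested genes, and their median difference was -0.04. The kinase LIMK1, which inactivates the actin-severing protein cofilin, rose from 8.22 in A46 to 8.82 in M1 (0.60, SE 0.08, adjusted p = 0.000239). The guanine nucleotide exchange factor VAV3 was higher by 0.46 and the small GTPase CDC42 by 0.22. Lower in M1 were CRMP1, a collapsin response mediator of semaphorin 3A signalling (-0.33), the Rac and CDC42 effector kinase PAK1 (-0.32), the adhesion molecule and semaphorin co-receptor L1CAM (-0.31) and the Rap regulator SIPA1L1 (-0.29). Adjusted p-values for these 6 genes were between 0.0027 and 0.0256. Of the 12 calls, that of LIMK1 alone held without each animal in turn and without the animal term (adjusted p up to 0.0179), and all the others were lost without animal 2. In PMd minus A46, 1 of 58 was called (LIMK1, higher), in M1 minus the premotor mean 1 (VAV3, higher), and in PMv minus A46 and PMd minus PMv 0.

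The members too dim to be tested were EPHA2, EPHA6, EPHA8, EFNA4, EFNA5, NTN1, NRP2, PLXNC1, SEMA3A, SEMA4F, DCC, UNC5C and UNC5CL, with mean log2 intensities between 3.20 and 5.44. EFNA5, the ephrin that binds EPHA3, had a mean of 5.13, NRP2 one of 5.44 and the 2 DCC probe sets 3.23 and 3.92. The probe sets nearest the limit were those of NRP1 (5.61, a dimmer one of that gene) below it and SEMA3F (5.68) above it. A dim probe set can reflect a low transcript level or a poor probe, and no difference between areas is given for them.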

How the data were processed

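The deposited values are microarray intensities on a linear scale, 1 per probe set and array, summarised with robust multi-array average (RMA), which the submitters' processing notes name; its version is not given in the sources used here. RMA brings arrays to a common distribution, so a shift common to all transcripts would not show. Titles gave area and hemisphere. Their final number was taken as the animal, which matched the sex and age labels but is not stated by any label. The deposited intensities were converted here to log2, and 99 control probe sets were removed. Of the rest, 24956 had 1 gene symbol, 361 several and 27449 none; all 65 member genes matched RefSeq by Entrez ID. Probe sets with a mean below the median (log2 5.62, intensity 49.3) were left out, and a gene was represented by its brightest probe set.

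Hemispheres were averaged, and limma 3.58.1 (R 4.3.3; lmFit, eBayes with an intensity trend) was fitted to the 12 animal-by-area means with area and animal as terms (6 residual degrees of freedom). P-values were two-sided and Benjamini-Hochberg adjusted over 26383 probe sets within each comparison, with a threshold of 0.05; every adjusted p in the text comes from limma. Left minus right was fitted to the 24 arrays, blocking on the 12 pairs of pieces (same animal, same area). The pairing by animal rests on the final number of the titles. After removing area means, the correlation was 0.207 to 0.85 for the 18 same-animal pairs and, for the 48 other pairs, -0.757 to 0.0654. Removing a mean over only 3 animals itself pushes pairs of different animals below 0, so this contrast is partly built in. The code was tested on simulated data. Arrays have no read depth, and the 3 animals limit precision.

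Members and gene lists were chosen with earlier results of these data known. Named were, per family, the genes called in M1 minus A46 or the F test, the one with the widest range of area means, the brightest, and a fixed set of well-known genes; of the other pathway genes, up to 4 called each way, of which 1 is not reported here. Genes outside this rule (EPHA1, EPHA5, PLXNA3, PLXNB1, SEMA7A, SEMA3F, LRRC4C and others in ranges) were chosen after their values were seen. The alternatives were no animal term, each animal left out, other intensity filters, a pseudocount of 16, quantile normalization, no trend, and 1 hemisphere only. No genome build is named, so no coordinates are given.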

Additional observations from a re-analysis of the deposited data

Results flagged for a closer look

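Of 96 groups of 6 arrays (24 named genes in 4 areas), 2 held an array far from the others by Dixon's test, which by chance marks about 1 group in 20. In PMv, SEMA6D had a log2 intensity of 8.48 on the left array of animal 1, whereas the other 5 lay between 8.95 and 9.11. Also in PMv, SLIT2 measured 8.05 on the left array of animal 2, and the other 5 lay between 8.16 and 8.20. Both are the arrays that stood apart over all probe sets.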

How the results depend on the processing

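In M1 minus A46, none of the 14 called genes changed sign under the alternatives run. Among the named genes that were not called, 3 did: EFNA1 went to 0.14 as the mean of its probe sets, NTNG2 ranged from -0.11 to 0.017 and ROBO2 from -0.10 to 0.12 with 1 animal left out, and ROBO2 was -0.055 with the left hemisphere only. Pseudocount 16 and a fit without the intensity trend changed no call of a named gene in that comparison. Other alternatives did. With the left hemisphere only, 9 of the 14 called genes lost their call. With the right only, 4 did (PLXNA1, PLXNA2, SEMA4A and ROBO1), and SEMA6D gained one. Without the intensity filter, 3 lost it (SEMA4A, SLIT2 and ROBO1, adjusted p = 0.0608, 0.0523 and 0.0584). Quantile normalization added EFNA1, EPHA4 and SEMA6D, and the stricter filter EFNA1. The counts of called member probe sets moved as well. They are given without the share of all probe sets in each fit, so a change across the whole array cannot be told apart. Without a replicate block for the animal, 2 were called in the F test (10 with it), 5 in M1 minus A46 (21), 0 in PMd minus A46 (4), 0 in PMv minus A46 (4) and 1 in M1 minus the premotor mean (3). Leaving out 1 animal gave 1 to 27, 2 to 28, 0 to 16, 0 to 27 and 1 to 5 in the same order, and 0 to 4 in PMd minus PMv. With the left hemisphere only, the first 5 counts were 5, 7, 0, 1 and 1. With the right hemisphere only, PMd minus A46 and PMv minus A46 each fell to 2. The stricter filter gave 6 in the F test and 2 in each of these premotor comparisons, partly because fewer probe sets were tested. Quantile normalization raised the F test to 17 and PMv minus A46 to 7. Using right PMv arrays only for animals 1 and 2, chosen after seeing the data, raised PMd minus A46 to 7. With animal 3 also left out, also chosen after seeing the data, the F test called 23, PMd minus A46 16 and PMv minus A46 19, NTNG2 was 0.017 and ROBO2 -0.10. For the other moves the cause was not tested. Left minus right and its interaction with area stayed at 0 in each alternative run. With the animal term removed, 10 of the 14 called genes lost their call in M1 minus A46; EPHA3, EFNB3, NTNG1 and UNC5B kept it. Signal over background limits the 33 dim probe sets, and small differences may have been missed with 3 animals.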
